A study of Mus musculus with 47 samples.

Results

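The Notch genes described here are 10 of the 35856 genes in the expression table: the receptors Notch1 and Notch3, the ligands Dll1, Dll3, Dll4 and Jag1, the receptor-modifying enzyme Lfng, and the target genes Hes1, Hes5 and Hey1. They were chosen by name with earlier results of these data known, and all 10 were present. Their values set beside those of all genes are thus a description and no test of the set. RNA was measured in mouse embryonic stem cells (ESC) and in neural progenitor cells (NPC) derived from them, in 47 libraries of 16 groups: 4 lines, 2 stages, with and without auxin. All 4 lines were C57BL/6 ESC lines carrying Tir1, a plant ubiquitin ligase subunit that, once auxin is added, has tagged proteins degraded. The labels give their genotypes as untagged, Tir1; SUZ12-AID, Tir1; MTF2-AID, Tir1; and AID-JARID2, Tir1, where AID is the auxin-inducible degron tag. SUZ12 is a core subunit of Polycomb repressive complex 2 (PRC2), which methylates lysine 27 of histone H3, and MTF2 and JARID2 are accessory subunits of its alternative forms. ESC were kept with 100 U/ml LIF and the kinase inhibitors CHIR99021 (3 µM) and PD0325901 (1 µM), and auxin groups received 50 µM indole-3-acetic acid for 12 hours. For NPC, the cells received bFGF (10 ng/ml) for 72 hours, then SAG (500 nM), which activates Hedgehog signalling, for 48 hours, and auxin groups received 50 µM for 5 days, the length of the differentiation. The untagged line with auxin controls for auxin itself. Each group had 3 biological replicates per the series' design, except SUZ12 NPC with auxin, which had 2. The labels name 1 line per genotype, so a line and its clone cannot be told apart.

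A Notch receptor is cleaved when it meets a ligand on a neighbouring cell, and its intracellular part then enters the nucleus, where it joins the DNA-binding protein RBPJ and a Mastermind co-activator. The complex turns on Hes and Hey genes, whose proteins repress proneural genes and, through them, the Delta-like ligands. In the developing neural tube this exchange keeps some cells as progenitors while neighbours with high Delta-like ligand become neurons.

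The promoters of 3 members are shown because Hes5 and Lfng lost the largest share of their RNA in NPC without SUZ12 and Dll4 was near silent in ESC. Each run is the 250 bases before the RefSeq start, 5′ to 3′ on the gene's strand, from RefSeq on GRCm38.p6. Capitals mark TGGGAA, the core letters of RBPJ sites, and CACGTG, the palindrome that Hes and Hey proteins can bind, on either strand. The windows lie at chr4:154960673-154960922 (Hes5, plus strand), chr5:140607091-140607340 (Lfng, plus strand) and chr2:119325534-119325783 (Dll4, plus strand).
Hes5: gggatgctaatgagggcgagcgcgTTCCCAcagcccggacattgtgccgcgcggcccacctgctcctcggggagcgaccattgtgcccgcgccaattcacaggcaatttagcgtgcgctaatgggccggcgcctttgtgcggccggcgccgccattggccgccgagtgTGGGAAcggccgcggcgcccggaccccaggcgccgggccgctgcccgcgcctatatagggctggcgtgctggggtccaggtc
Lfng: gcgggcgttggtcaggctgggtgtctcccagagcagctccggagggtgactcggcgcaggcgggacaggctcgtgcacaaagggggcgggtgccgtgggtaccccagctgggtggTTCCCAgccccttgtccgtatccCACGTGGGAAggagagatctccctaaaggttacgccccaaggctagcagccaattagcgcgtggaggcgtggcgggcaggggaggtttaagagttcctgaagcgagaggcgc
Dll4: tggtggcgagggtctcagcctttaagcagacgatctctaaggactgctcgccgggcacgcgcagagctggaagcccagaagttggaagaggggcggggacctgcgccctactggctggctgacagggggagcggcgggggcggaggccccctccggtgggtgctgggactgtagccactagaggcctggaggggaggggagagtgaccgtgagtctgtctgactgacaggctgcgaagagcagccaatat

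The Hes5 window holds TGGGAA 82 bases before the start on the plus strand and again 226 bases before it on the minus strand. The Lfng window holds it 108 bases before the start on the plus strand and 135 bases before it on the minus strand, and CACGTG 112 bases before the start overlaps the former. The Dll4 window holds neither, and has 1 match of the N box CACNAG, another Hes-binding word, 75 bases before the start. RefSeq windows were matched for 8 of the 10 members (9 windows, since Dll1 has 2 starts), and those of Hes1 and Hey1 are not shown. TGGGAA occurred in 2 of the 9 windows and in 21.6% of all 32851 windows of that length, and 2 or more matches occurred in 2.77% of all windows. CACGTG occurred in 1 of the 9 against 6.02% of all, and CACNAG in 4 of the 9 against 36.7%. GC content was 71.6% for Hes5, 66.0% for Lfng and 65.6% for Dll4, against a median of 52.4% over all windows. A match is a run of letters, not a measured binding site.

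Values are TPM, a level per unit of transcript length scaled to the same total in every library, as the authors deposited them. Depth, recovered from the TPM steps, was 3.24 to 8.71 M reads per library (M, 1000000; median 5.39 M). Changes were tested with limma on log2(TPM + 0.5), a scale that understates the change of genes near 0, with p adjusted by Benjamini-Hochberg over all genes tested, and a gene was called at an adjusted p under 0.05. The errors after ± are standard deviations of TPM between libraries or standard errors of log2 changes. The degron removes protein, so the RNA of Suz12, Mtf2 and Jarid2 is no check of the labels, and protein was not analysed here. The stage labels were checked on marker genes in the untagged line without auxin: 10 neural progenitor markers summed to 4601 to 4719 TPM in NPC and 758 to 789 TPM in ESC, and 6 pluripotency markers to 18.6 to 21.7 TPM in NPC and 3283 to 3341 TPM in ESC. In bulk RNA, fewer cells of a type and less RNA per cell cannot be told apart.

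From ESC to NPC, in the untagged line without auxin, all 10 members rose. The background in that comparison was high: 47.6% of all genes tested were called higher. The median change of the 10 was 5.01 on the log2 scale, against 0.28 over all genes. With TPM rescaled by median-of-ratios factors the all-gene median became 0, the split of all calls moved from 8462 higher and 5055 lower to 6740 higher and 6697 lower, and all 10 members were still called higher.

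The receptors were expressed at both stages. Notch1 (chr2:26457903-26516663, minus strand, GRCm38 throughout), the receptor of most neural progenitors, measured 27.5, 28.9 and 27.1 TPM in the 3 ESC libraries and 105, 100.4 and 79.2 TPM in the 3 NPC libraries. Notch3 (chr17:32120820-32166852, minus strand), also known from smooth muscle of vessels, measured 8.37, 8.43 and 8.54 TPM and then 96.9, 88.6 and 73.2 TPM. The stages did not overlap for either, with log2 changes of 1.74 ± 0.08, adjusted p = 3.81e-21 and 3.27 ± 0.11, adjusted p = 4.68e-25.

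Dll1 and Dll3 went from near 0 to levels above those of both receptors, and Dll4 from near 0 to a lower level. Dll1 (chr17:15367354-15376872, minus strand), the main ligand of neurogenic cells, measured 0.800, 0.325 and 0.447 TPM in ESC and 141, 128 and 117 TPM in NPC. Dll3 (chr7:28293553-28302238, minus strand), a divergent ligand that does not activate receptors on neighbouring cells, measured 0.991, 1.88 and 1.16 TPM and then 171, 158 and 132 TPM. Dll4 (chr2:119325784-119335962, plus strand), best known from vessels and also made by some spinal interneuron precursors, had 1 read in the 3 ESC libraries together and 425 reads in NPC, at 15.2, 17.1 and 11.9 TPM. Every NPC library of these 3 genes lay above every ESC library. As a ratio of reads scaled to library depth, Dll1 rose 249-fold (95% exact interval 148 to 456) and Dll4 367-fold (95% exact interval 65.5 to 14520), and these intervals cover counting error only, since the reads carry no molecular identifiers. Jag1 (chr2:137081456-137116644, minus strand), a ligand of the other class, changed far less, from 6.00, 5.30 and 6.18 TPM to 19.0, 16.8 and 17.5 TPM, by 1.53 ± 0.10, adjusted p = 4.85e-16.

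Lfng (chr5:140607320-140615545, plus strand), the glycosyltransferase that sets which ligands a receptor answers, went from 3.57, 3.91 and 2.38 TPM in ESC to 188, 183 and 183 TPM in NPC and was the highest of the 10 in NPC. Among the targets, Hes1 (chr16:30064384-30067796, plus strand), a repressor that ESC also use, was already at 62.7, 68.5 and 65.4 TPM in ESC and measured 166, 169.7 and 155 TPM in NPC. Hes5 (chr4:154960923-154962371, plus strand), the repressor most tied to Notch in neural progenitors, had 9 reads in the 3 ESC libraries (0.644, 0.813 and 0.419 TPM) and 2689 reads in NPC (164, 166 and 154 TPM), 258-fold (95% exact interval 136 to 565) higher as a depth-scaled ratio of reads. Hey1 (chr3:8663359-8667256, minus strand), a related repressor, measured 3.01, 4.03 and 3.64 TPM and then 157, 146 and 143 TPM. Hes1 was thus the highest target in ESC, and in NPC the 3 targets had like group means of 164 ± 7.73 TPM (SD, n = 3), 162 ± 6.44 TPM (SD, n = 3) and 149 ± 7.38 TPM (SD, n = 3), in the order Hes1, Hes5 and Hey1.

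**Figure D1:**
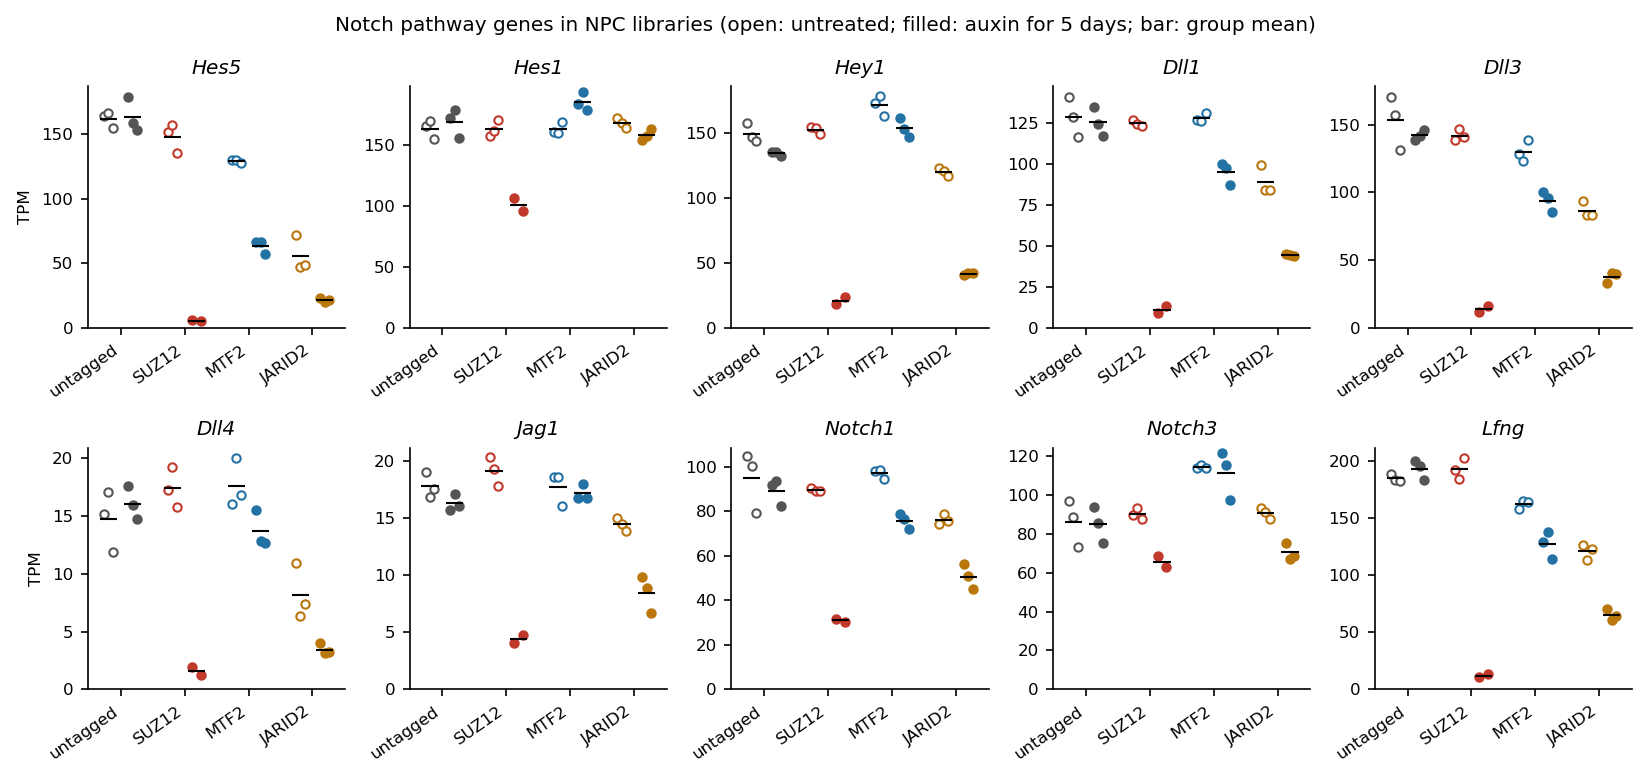
TPM of the 10 Notch genes in every NPC library (linear axis from 0 in each panel), by line and treatment, with each point a library and each short line a group mean. The SUZ12 libraries with auxin have the lowest mean in each panel, far below the other groups for Hes5 and Lfng and overlapping JARID2 with auxin for Notch3.

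In NPC without SUZ12, all 10 Notch genes fell, with Hes5, Lfng and the Delta-like ligands losing the most and Hes1 and Notch3 the least. The percent of the untreated mean that was left was 3.77% for Hes5, 6.11% for Lfng, 8.89% for Dll1, 9.19% for Dll4 and 9.79% for Dll3. Hey1 kept 13.6%, Jag1 23.1%, Notch1 34.7%, Hes1 62.0% and Notch3 72.6%. Of all genes tested in this comparison, 33% were called lower, and the median over all genes was -0.10 against -2.98 over the 10 members. Rescaling by median-of-ratios factors moved the split of all calls from 3931 higher and 5437 lower to 5068 higher and 4300 lower, with the 10 members called lower in both.

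Among the target genes, Hes5 measured 151, 157 and 135 TPM in the 3 untreated SUZ12 libraries and 5.84 and 5.31 TPM in the 2 with auxin, a log2 change of -4.61 ± 0.13, adjusted p = 1.09e-17. No untreated library came near an auxin library. Hey1 measured 154, 154 and 149 TPM without and 18.1 and 23.5 TPM with auxin (-2.86 ± 0.08, adjusted p = 5.6e-18). Hes1 measured 157, 162 and 171 TPM without and 106 and 96.2 TPM with auxin (-0.69 ± 0.06, adjusted p = 5.46e-09). The groups did not overlap for any of the 3. By group mean Hes1 was the highest target and Hes5 the lowest, with and without auxin. The untreated means lay closer together, at 163 TPM (Hes1), 152 TPM (Hey1) and 148 TPM (Hes5).

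The ligands fell by different amounts. Dll1 measured 127, 124 and 123 TPM without auxin and 9.11 and 13.1 TPM with it (-3.46 ± 0.11, adjusted p = 1.02e-16). Dll3 measured 139, 147 and 141 TPM without and 11.6 and 16.2 TPM with auxin (-3.33 ± 0.12, adjusted p = 9.31e-16). Dll4, the lowest of the ligands, measured 17.3, 19.3 and 15.8 TPM without and 1.93 and 1.27 TPM with auxin (-3.11 ± 0.19, adjusted p = 9.82e-12), the latter from 28 reads in all. These 3 Delta-like genes kept like shares of their untreated level, while Jag1 kept more, at 20.3, 19.3 and 17.8 TPM without and 4.09 and 4.74 TPM with auxin (-2.00 ± 0.12, adjusted p = 6e-12). Lfng, the highest of the 10 before, measured 192, 184 and 202 TPM without and 10.6 and 13.0 TPM with auxin (-3.98 ± 0.08, adjusted p = 1.91e-19).

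Both receptors kept more of their RNA than the Delta-like ligands did. Notch1 measured 90.4, 89.0 and 89.0 TPM without and 31.7 and 30.4 TPM with auxin (-1.51 ± 0.10, adjusted p = 1.61e-11). Notch3 measured 89.6, 93.5 and 87.6 TPM without and 68.4 and 62.7 TPM with auxin (-0.46 ± 0.10, adjusted p = 0.000654), groups that do not overlap but lie closer than for any other member.

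**Figure D2:**
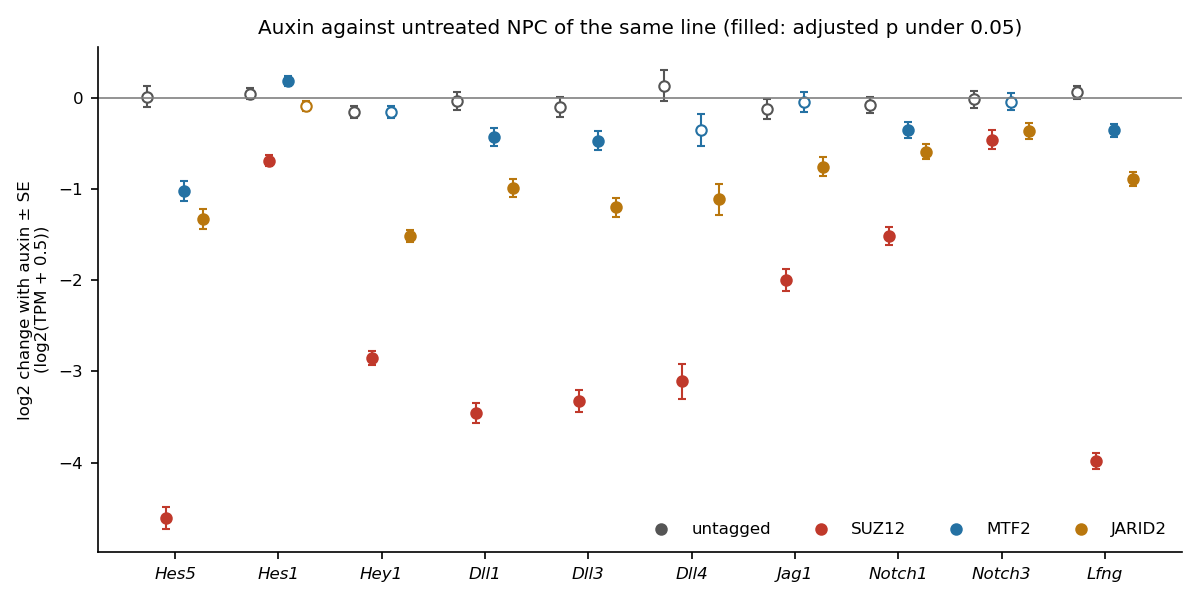
Log2 change with auxin of each of the 10 Notch genes in NPC, by line, with bars for the standard error from limma and filled points for an adjusted p under 0.05. The SUZ12 values run from -4.61 (Hes5) to -0.46 (Notch3), and those of the untagged line lie near 0.

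In NPC without JARID2, 9 of the 10 members fell and Hes1 did not pass the test. All genes called lower made up 15.7% of those tested, and the median was -0.94 over the members and -0.04 over all genes. The split of all calls was 1528 higher and 2588 lower, and 2236 higher and 2195 lower after median-of-ratios rescaling, and the 9 were called lower in both. The order was not that seen without SUZ12: Hey1 changed the most.

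Hey1 measured 123, 120.3 and 117 TPM in untreated JARID2 NPC and 40.4, 42.5 and 41.9 TPM with auxin (-1.52 ± 0.07, adjusted p = 7.41e-13). Hes5 was at 72.0, 46.8 and 48.8 TPM before and 22.9, 20.2 and 21.4 TPM after (-1.33 ± 0.11, adjusted p = 1.24e-08), with the untreated replicate 1 well above the other 2. Hes1 measured 172, 168 and 164 TPM and 154, 157 and 163 TPM (-0.09 ± 0.06, adjusted p = 0.267). The Hes1 groups did not overlap, though the auxin mean was still 94.0% of the untreated mean. So the targets split, with 2 of 3 called lower and Hes1 not called.

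The ligands in JARID2 NPC fell to between 42.0% (Dll4) and 58.5% (Jag1) of the untreated mean. Dll3 went from 93.6, 83.1 and 83.2 TPM to 32.9, 40.4 and 39.4 TPM (-1.20 ± 0.11, adjusted p = 2.27e-08). Dll1 went from 99.5, 84.0 and 83.9 TPM to 45.0, 44.7 and 44.1 TPM (-0.99 ± 0.10, adjusted p = 9.78e-08). The groups were apart for both. Dll4 changed by -1.11 ± 0.17, adjusted p = 4.27e-05, and Jag1 by -0.75 ± 0.11, adjusted p = 1.56e-05. Lfng went from 126, 113 and 123 TPM to 70.1, 60.8 and 64.1 TPM (-0.89 ± 0.07, adjusted p = 1.04e-08). The receptors changed least among the members called: Notch1 by -0.59 ± 0.09, adjusted p = 2.27e-05, and Notch3 by -0.36 ± 0.09, adjusted p = 0.0053.

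In NPC without MTF2, the changes were smaller: 5 members fell (Hes5, Dll1, Dll3, Lfng and Notch1), Hes1 was called higher, and Hey1, Dll4, Jag1 and Notch3 did not pass the test. Over all genes 3.11% were called lower and 5.03% higher, and the median was -0.35 over the members and 0.03 over all genes. Over all calls the split was 828 higher and 512 lower, and 722 higher and 805 lower after median-of-ratios rescaling.

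Hes5 stood apart in this line, at 130.1, 129.7 and 127 TPM without and 66.5, 66.8 and 57.3 TPM with auxin (-1.02 ± 0.11, adjusted p = 1.16e-05), 49.2% of the untreated mean. The other 4 that fell kept 72.2% (Dll3), 74.2% (Dll1), 78.1% (Notch1) and 78.2% (Lfng). Lfng measured 158, 165 and 163 TPM without and 129, 138 and 114 TPM with auxin (-0.36 ± 0.07, adjusted p = 0.00443). Dll1 measured 127, 126 and 131 TPM without and 100.0, 97.3 and 87.3 TPM with auxin (-0.43 ± 0.10, adjusted p = 0.00741). For both, no auxin library reached an untreated one. Dll3 changed by -0.47 ± 0.11, adjusted p = 0.00794, and Notch1 by -0.36 ± 0.09, adjusted p = 0.0131, the latter not called without the auxin replicate 3 (-0.32, adjusted p = 0.0601).

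The rise of Hes1 in MTF2 NPC was small, from 161, 160.0 and 169 TPM to 184, 194 and 179 TPM (0.18 ± 0.06, adjusted p = 0.0459). It was not called after median-of-ratios rescaling (0.15, adjusted p = 0.11) or when any 1 of the 6 MTF2 libraries was left out (adjusted p from 0.0544 without auxin replicate 3 to 0.152 without auxin replicate 2). Hey1 was at -0.15 (adjusted p = 0.173), Dll4 at -0.35 (adjusted p = 0.226), Jag1 at -0.04 (adjusted p = 0.868) and Notch3 at -0.04 (adjusted p = 0.845) on the log2 scale. The groups of Hey1 and of Dll4 did not overlap, while those of Jag1 and of Notch3 did.

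With auxin in untagged NPC none of the 10 was called. Of 16469 genes tested, 0% were called by limma, 1180 had an unadjusted p under 0.05, and a voom fit on the recovered reads called 16. Hes5 measured 164, 166 and 154 TPM without and 178, 158 and 153 TPM with auxin (0.01 ± 0.11, adjusted p = 1.0), and the groups overlapped. The largest change of a member was that of Hey1 (-0.15 ± 0.07, adjusted p = 0.686). Its groups did not overlap, at 143.5 to 157.5 TPM without and 132.2 to 135.2 TPM with auxin. The 3 tagged lines were next compared with this control by subtracting its auxin effect from theirs, so these comparisons share the untagged libraries.

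Beyond the untagged effect, all 10 members were lower in SUZ12 NPC (background 24.7% called lower), 8 in JARID2 NPC (5.94%) and Hes5 alone in MTF2 NPC (0.328%). The Hes5 change beyond the untagged line was -4.62 ± 0.17 in SUZ12 (adjusted p = 4.27e-15), -1.34 ± 0.16 in JARID2 (adjusted p = 5.8e-06) and -1.03 ± 0.16 in MTF2 (adjusted p = 0.00228). In JARID2, Hes1 (-0.14, adjusted p = 0.342) and Notch3 (-0.35, adjusted p = 0.106) did not pass. In MTF2, Lfng was next, at -0.42, adjusted p = 0.051, and it was called after median-of-ratios rescaling (-0.48, adjusted p = 0.0256) and without the auxin replicate 2 (-0.48, adjusted p = 0.0293). Notch3 in SUZ12 (-0.44, adjusted p = 0.0125) was not called without the SUZ12 auxin replicate 2 (-0.38, adjusted p = 0.0706), the fit then resting on 1 auxin library assumed to vary like the other groups. The split of all calls beyond the untagged line went with rescaling from 3095 higher and 4075 lower to 3943 and 3333 in SUZ12, and from 176 and 54 to 135 and 101 in MTF2.

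The lines' auxin effects were also set against each other. The effect in SUZ12 was lower than in MTF2 for all 10 members (background 27.2% called lower, with all calls at 2592 higher and 4483 lower, or 3802 and 3190 after rescaling). It was lower than in JARID2 for 9 (17.6%), Notch3 being the exception (-0.09, adjusted p = 0.649). The difference between SUZ12 and JARID2 was -3.28 ± 0.17 for Hes5 (adjusted p = 4.71e-12), -3.09 ± 0.11 for Lfng (adjusted p = 1.56e-14) and -1.34 ± 0.10 for Hey1 (adjusted p = 1.69e-09). Between SUZ12 and MTF2, Notch3 (-0.42, adjusted p = 0.0187) was not called after median-of-ratios rescaling (-0.24, adjusted p = 0.12), without the MTF2 auxin replicate 1 (-0.35, adjusted p = 0.0542) or without the SUZ12 auxin replicate 2 (-0.35, adjusted p = 0.0945).

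MTF2 and JARID2 differed for 6 members, each with the smaller loss, or a rise, in MTF2: Hey1, Dll1, Dll3, Jag1, Lfng and Hes1 (background 7.82% called higher, with all calls at 1288 higher and 300 lower, or 914 and 616 after rescaling). Hey1 gave the largest difference, 1.36 ± 0.10, adjusted p = 7.39e-09, as it kept 89.9% in MTF2 NPC and 34.7% in JARID2 NPC. Hes5, which fell in both, did not pass (0.31 ± 0.16, adjusted p = 0.243), which does not show that the effects were alike. Dll4 came close (0.76, adjusted p = 0.0508) and was called without the JARID2 auxin replicate 1 (0.86, adjusted p = 0.0367), the JARID2 untreated replicate 2 (0.92, adjusted p = 0.0212) or the MTF2 untreated replicate 2 (0.85, adjusted p = 0.0463). Hes1 (0.27, adjusted p = 0.0318) was not called after rescaling (0.17, adjusted p = 0.184), nor on leaving out any 1 of 8 of the 12 libraries, with an adjusted p of up to 0.0784 without the MTF2 auxin replicate 2.

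Tagged lines differed from the untagged line before any auxin. In untreated JARID2 NPC, 7 members were lower than in untreated untagged NPC (background 12% called lower). Hes5 was at 55.9 ± 14.0 TPM (SD, n = 3) against 162 ± 6.44 TPM (SD, n = 3), a log2 difference of -1.55 ± 0.11, adjusted p = 1.52e-09. The others were Dll4 (-0.83), Dll3 (-0.81), Lfng (-0.61), Dll1 (-0.53), Hey1 (-0.31) and Notch1 (-0.30), with limma adjusted p from 2.22e-06 to 0.0123. Notch1 was not called without the untagged replicate 1 (-0.23, adjusted p = 0.0849) or replicate 2 (-0.26, adjusted p = 0.0669). For these 7, the auxin effects given for JARID2 are steps from a lower start. Hes1 and Notch3 started at 168 ± 4.21 TPM (SD, n = 3) and 90.8 ± 2.88 TPM (SD, n = 3), and Jag1 did not pass (-0.29, adjusted p = 0.0555). Clone, tag and any loss of JARID2 before auxin cannot be told apart in these groups.

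In untreated MTF2 NPC, Notch3 was higher than in the untagged line, at 114 ± 0.869 TPM (SD, n = 3) against 86.2 ± 12.0 TPM (SD, n = 3) (0.41 ± 0.09, adjusted p = 0.00633), where 6.19% of all genes were called higher. The 7 mural and mesenchymal markers, of cells that also make Notch3, summed to 139 to 149 TPM in untreated MTF2 NPC and 54.3 to 58.0 TPM in untagged NPC (2 of 6 tested called higher), and their part in the result was not tested. Notch3 was not called without the untagged replicate 3 (0.30, adjusted p = 0.0568). Hes5 was at 129 ± 1.45 TPM (SD, n = 3), below the untagged line without passing the test (-0.32, adjusted p = 0.078), and was called after median-of-ratios rescaling (-0.37, adjusted p = 0.0286). That rescaling moved the split of all calls from 1020 higher and 423 lower to 822 and 662. No member was called in untreated SUZ12 NPC (background 0.814%), where the split was 110 higher and 24 lower, or 93 and 38 after rescaling.

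Set in order over the 8 NPC groups, all 10 members were lowest in SUZ12 NPC with auxin, and the second lowest group was JARID2 NPC with auxin for each. Only for Notch3 did these lowest groups overlap (68.4 and 62.7 TPM against 75.5, 67.3 and 68.8 TPM). For Hes5 the order of group means was untagged with auxin, untagged, SUZ12 and MTF2 untreated, MTF2 with auxin, JARID2 untreated, JARID2 with auxin and SUZ12 with auxin. The 3 highest of these groups overlapped with their neighbours, as did MTF2 with auxin (66.5, 66.8 and 57.3 TPM) and JARID2 untreated (72.0, 46.8 and 48.8 TPM), and the other neighbours did not. The same overlap of MTF2 with auxin and JARID2 untreated was seen for Dll1, Dll3, Lfng and Notch1. Hes1 was flat but for its ends: 6 of the 8 groups had means of 158 to 169 TPM and overlapped with their neighbours, with MTF2 with auxin above and SUZ12 with auxin below.

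Across the 8 NPC group means of log2(TPM + 0.5), the members fell into a tight set and a pair of looser genes. Pearson's r was 0.993 between Hes5 and Dll3 and 0.996 between Dll1 and Lfng, while Notch3 had r of 0.673 to 0.853 with the other members and Hes1 0.707 to 0.905. These 8 points are 4 lines with and without auxin, set apart mainly by the SUZ12 and JARID2 groups, so r describes them and carries no test. Among 10555 genes searched by the same measure, the nearest to Hes5 were Tubb4a (0.9963), Arhgef10l (0.9954) and Nrarp (0.9951). The nearest to Dll1 were Rgma (0.9988), Srgap3 and Insm1 (0.9979). For Lfng they included Zfp36l1 (0.999) and Dazap2, for Hey1 Npas3 (0.998), Mvb12b and Nap1l5, for Dll3 Lrrc16b (0.999), Tubb2b and Shd, and for Dll4 Stk32c (0.9967), Cspg5 and Pik3c2b. For Jag1 they were Lrrn1 (0.9977), Nap1l5 and Cisd2, for Notch1 Clip3 (0.9995), Plk3 and Ppp6r2, for Hes1 Tmem161a (0.9882), Hspa4l and Tnfaip6, and for Notch3 Lman2 (0.9871), Arhgap35 and Wars.

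In ESC, 12 hours of auxin moved few members. In SUZ12 ESC, 3 of the 8 tested were called higher (background 5.89% called higher): Notch1, Notch3 and Jag1. Notch1 measured 25.5, 25.0 and 26.4 TPM without and 36.8, 31.5 and 32.4 TPM with auxin (0.38 ± 0.07, adjusted p = 0.0038). Jag1 measured 6.44, 5.89 and 7.18 TPM without and 8.26, 8.75 and 9.24 TPM with auxin (0.40 ± 0.11, adjusted p = 0.0299). Notch3 measured 7.35, 7.79 and 7.90 TPM without and 11.2, 11.6 and 9.41 TPM with auxin (0.45 ± 0.13, adjusted p = 0.04). No library of 1 group reached the other for these 3 genes. All 3 thus stood on opposite sides by stage in the SUZ12 line, higher with auxin in ESC and lower in NPC. The difference was not tested and the times of exposure differ. The uncalled Hes1, Hey1 and Lfng were also higher in SUZ12 ESC, at 121.8%, 160.2% and 158.8% of the untreated mean without overlap. The groups of Dll1 and of Dll3 overlapped.

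These ESC calls were fragile. Rescaling turned the split of all calls from 889 higher and 142 lower to 404 and 743, and kept Notch1 alone among the members, with Jag1 at 0.31, adjusted p = 0.068 and Notch3 at 0.35, adjusted p = 0.101. Leaving out 1 of the 6 libraries ended the Jag1 call for auxin replicate 1, 2 or 3 (adjusted p = 0.0623, 0.0804 and 0.0894) and untreated replicate 1 or 2 (0.0779 and 0.15). It ended the Notch3 call for auxin replicate 1 or 2 (adjusted p = 0.142 and 0.143) and untreated replicate 1, 2 or 3 (0.111, 0.114 and 0.0756). Beyond the untagged effect no member was called in SUZ12 ESC, where 0.192% of all genes were, at 27 higher and 2 lower, or 13 and 20 after rescaling. Hes1 (0.28, adjusted p = 0.0522) and Hey1 (0.61, adjusted p = 0.0544) did not pass in SUZ12 ESC itself.

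No member was called with auxin in untagged ESC (background 0.212%), MTF2 ESC (1.09%) or JARID2 ESC (0.298%), nor beyond the untagged line in MTF2 ESC (0.00662%). Beyond the untagged line in JARID2 ESC, limma called 0% of all genes, 749 having an unadjusted p under 0.05, and voom called 0. Without auxin, Notch1 was lower in MTF2 than in untagged ESC (-0.29 ± 0.07, adjusted p = 0.00808), where 8.39% of genes were called lower. Jag1 was lower in JARID2 ESC (-0.38 ± 0.11, adjusted p = 0.0368, background 3.22%), a call lost without the JARID2 replicate 2 (-0.38, adjusted p = 0.0914) or 3 (-0.33, adjusted p = 0.136) and without the untagged replicate 1 (-0.36, adjusted p = 0.12) or 3 (-0.34, adjusted p = 0.141). Leaving out the JARID2 replicate 1 instead called Lfng as well (-1.09, adjusted p = 0.0293). None was called in untreated SUZ12 ESC (background 1.65%), where the split was 71 higher and 178 lower, or 97 and 112 after rescaling.

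Hes5 and Dll4 were too low in ESC to test. Hes5 had 0 to 5 reads in each of the 24 ESC libraries, with group means of 0.0580 to 0.625 TPM, and the SUZ12 group with auxin was the lowest. Dll4 had no read in any of the 6 JARID2 ESC libraries, which allows a level of up to 0.0702 TPM over them, and group means of 0 to 0.0817 TPM. Dll1 and Dll3 were low but above the filter, at group means of 0.334 to 0.907 TPM and 0.773 to 1.74 TPM. Dll3 was highest in SUZ12 ESC with auxin, at 2.54, 1.61 and 1.06 TPM against 0.820, 1.00 and 1.12 TPM untreated, groups that overlapped and did not pass the test (0.55 ± 0.30, adjusted p = 0.285).

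**Figure D3:**
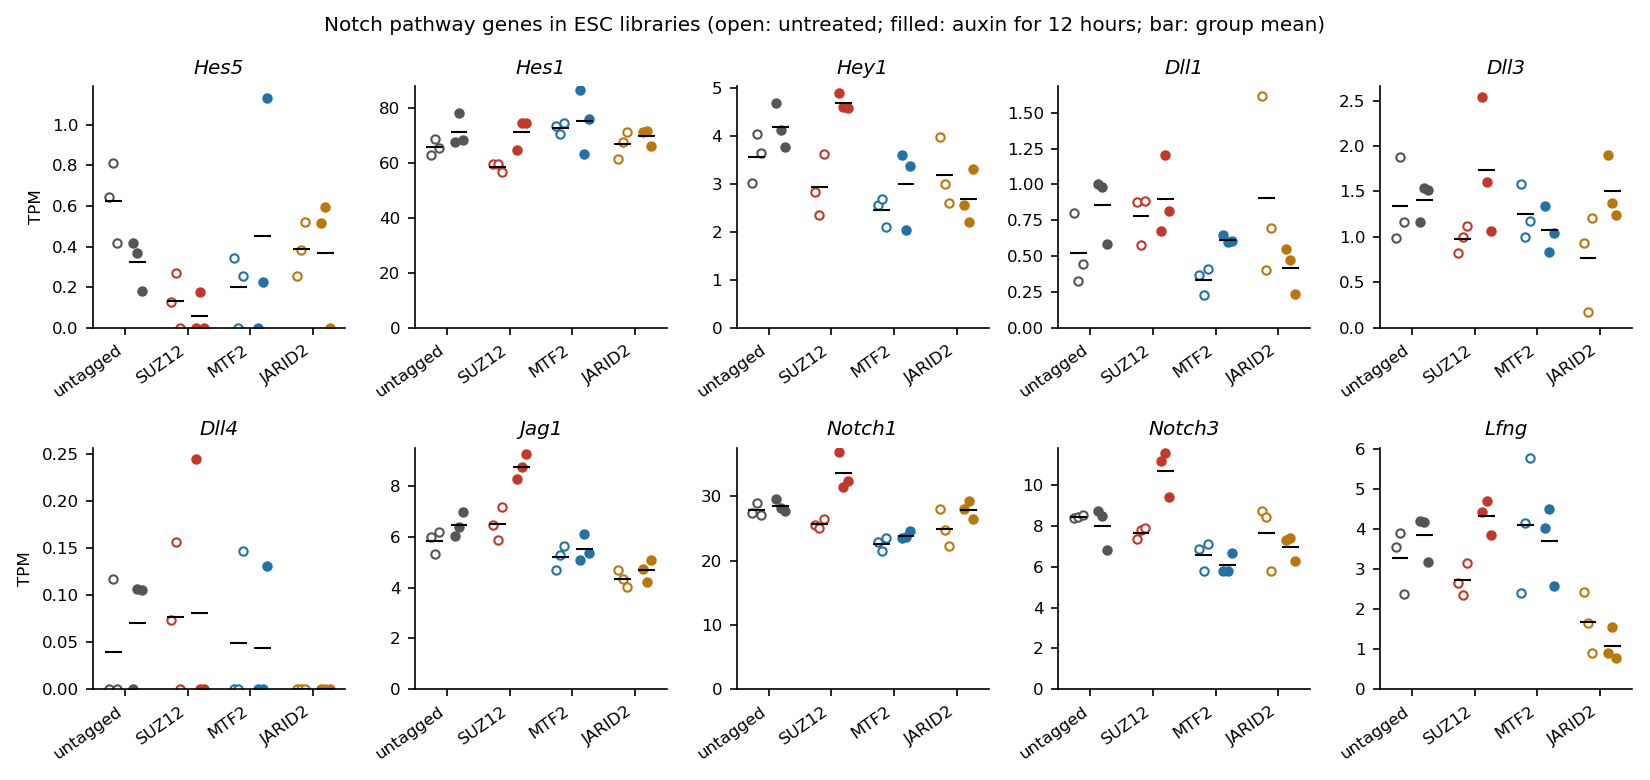
TPM of the 10 Notch genes in every ESC library (linear axis from 0 in each panel), with each point a library and each short line a group mean. Hes1 is the highest of the 10 in ESC, and Hes5 and Dll4 stay near 0 in every group.

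The wider pathway was described with 45 other Notch genes, of which 43 passed the filter in NPC. In SUZ12 NPC, 26 of them fell and 3 rose (24 and 7 after rescaling), with a median of -0.44 against the -2.98 of the 10 members. In JARID2 NPC 18 fell and 1 rose (16 and 3 after rescaling), and in MTF2 NPC 6 fell and none rose (7 and 0). With auxin in untagged NPC none was called in either direction, and 0 of all genes were. Beyond the untagged effect, 22 fell and 1 rose in SUZ12 NPC, 7 fell and 1 rose in JARID2 NPC, and 1 fell in MTF2 NPC. The share of all genes called lower in each comparison is that given for the members. From ESC to NPC, 32 of the 43 tested rose and 8 fell, or 28 and 12 after rescaling, when Adam17, Furin, Psenen and Snw1 changed sides. In SUZ12 ESC with auxin, 5 of 37 tested rose and none fell, or 2 and 3 after rescaling.

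Feedback genes of the pathway fell with the members in SUZ12 NPC. Nrarp, a target that dampens the receptor complex, was at 197 ± 8.96 TPM (SD, n = 3) untreated and 18.2 ± 2.17 TPM (SD, n = 2) with auxin (-3.41 ± 0.11, adjusted p = 1.23e-16). Dtx4, of the Deltex ubiquitin ligases, was at 156 ± 5.38 TPM (SD, n = 3) and then 23.0 ± 1.78 TPM (SD, n = 2) (-2.74 ± 0.08, adjusted p = 2.57e-17). Numbl (-1.34) and Dtx3 (-1.16) were also among the 6 of 9 inhibitors and modulators that fell. Mfng, another fringe, was at 115 ± 2.01 TPM (SD, n = 3) and then 12.0 ± 0.243 TPM (SD, n = 2) (-3.20 ± 0.05, adjusted p = 1.65e-20), while the other ligands, receptors and fringes moved less: Notch2 (-0.61) and Rfng (-0.63) fell, and Jag2 (0.14, adjusted p = 0.302) and Notch4 (-0.11, adjusted p = 0.716) did not pass.

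All 4 other Hes and Hey genes tested fell in SUZ12 NPC: Hes6 (-1.84), which counters Hes1, Hes2 (-3.23), Hey2 (-1.23) and Heyl (-0.94). The nuclear machinery moved less. Rbpj, the DNA-binding partner, was at 37.4 ± 2.55 TPM (SD, n = 3) and then 40.7 ± 1.33 TPM (SD, n = 2) (0.12 ± 0.09, adjusted p = 0.261), and 6 of 10 genes of the transcription complex fell, among them the co-activators Maml3 (-1.54) and Maml2 (-1.28) and the co-repressors Tle3 (-0.89) and Tle4 (-0.49). Of 15 genes that process ligand or receptor, 7 fell, such as the ubiquitin ligase Mib1 (-1.02) and the gamma-secretase subunit Ncstn (-0.73), and 3 rose: Psen2 (0.65), Furin (0.40) and Neurl1a (0.36).

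In JARID2 NPC the same feedback genes were lower, with Nrarp at -1.31 ± 0.10, adjusted p = 1.5e-09, Mfng at -1.03 ± 0.05, adjusted p = 2.1e-12 and Dtx4 at -0.78 ± 0.07, adjusted p = 2.85e-08, and Rbpj was higher (0.33 ± 0.08, adjusted p = 0.00523). In MTF2 NPC the 6 that fell were Hes2 (-0.91), Nrarp (-0.54), Mfng (-0.32), Maml3 (-0.31), Tle1 (-0.27) and Ncstn (-0.19). Proneural and neurogenic basic helix-loop-helix genes and Insm1, which act upstream of the Delta-like ligands or in the cells that make them, were a separate list of which 8 were tested. In SUZ12 NPC 7 fell, with Insm1 at 159.6 ± 9.30 TPM (SD, n = 3) and then 8.22 ± 0.521 TPM (SD, n = 2) (-4.20 ± 0.11, adjusted p = 5.49e-18), Neurod4 at -3.64 and Neurog1 at -2.70. Neurog3 was called higher (1.27 ± 0.53, adjusted p = 0.0447) on 2 reads in the 3 untreated and 8 reads in the 2 auxin libraries. In JARID2 NPC 6 fell and in MTF2 NPC 5 fell, with none higher. Of all genes tested, 33% were called lower in SUZ12 NPC, 15.7% in JARID2 NPC and 3.11% in MTF2 NPC.

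**Figure D4:**
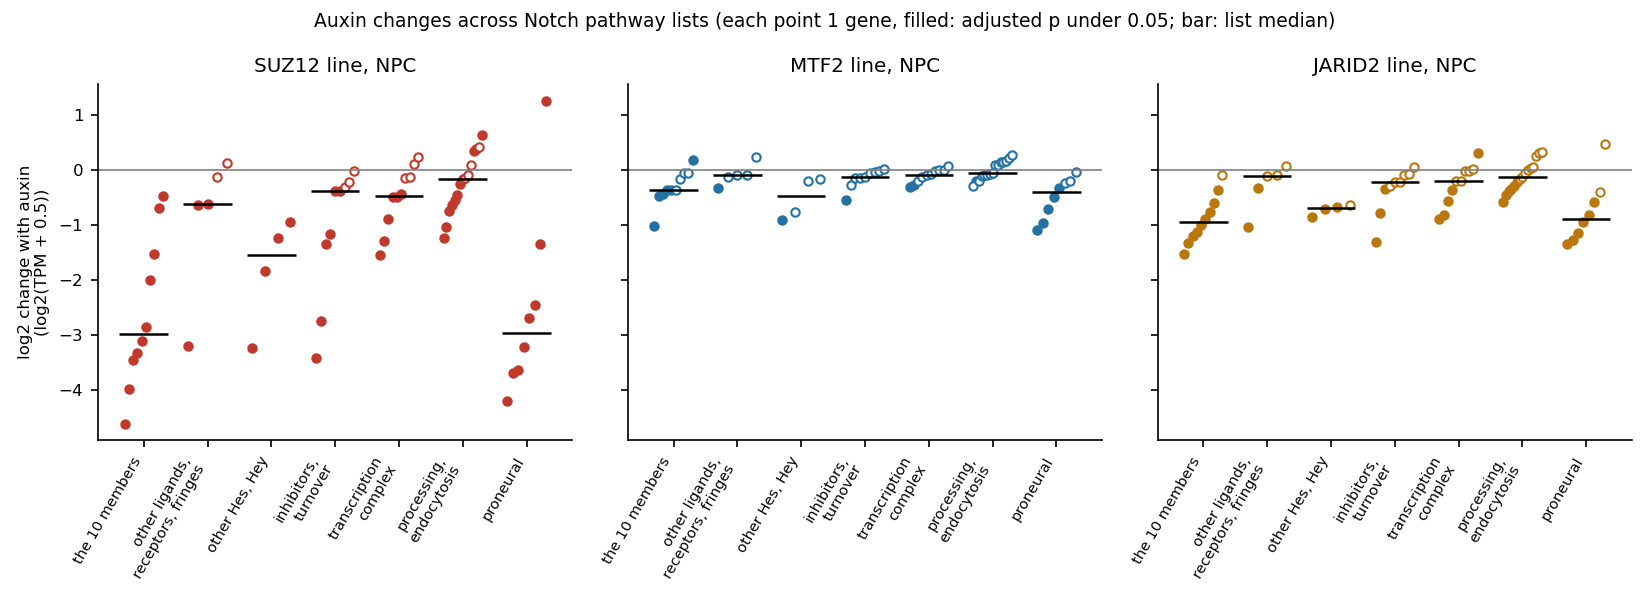
Log2 change with auxin in NPC for the 10 members and the other pathway lists, by line, with each point a gene, filled at an adjusted p under 0.05, and a short line at each list's median. In SUZ12 NPC the members' median is -2.98, near that of the proneural list (-2.95) and below those of the other Notch lists (-1.53 to -0.16), while Notch3 (-0.46) and Hes1 (-0.69) lie far above it.

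Markers of cell types moved with these results. In SUZ12 NPC the 10 neuron markers summed to 4780 to 5051 TPM in untreated libraries and 481 to 535 TPM with auxin, and the 10 neural progenitor markers to 4533 to 4586 TPM and 1874 to 1877 TPM. All 10 neuron markers and all 9 progenitor markers tested fell. The 6 pluripotency markers all rose, their sum being 11.8 to 17.3 TPM without and 546 to 558 TPM with auxin. Of the 16469 genes tested in this comparison, 33% were called lower and 3931 were called higher. Hes3, the progenitor marker that did not pass the filter, is also one of the 45 other Notch genes. Its mean was under 1 TPM in untreated SUZ12 NPC and reached 1 TPM with auxin, so it did not follow the other progenitor markers. The part of the marker shifts in the fall of the Notch genes was not tested.

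In JARID2 NPC the neuron sum was 2491 to 2945 TPM without and 785 to 865 TPM with auxin, with all 10 markers called lower, and the progenitor sum 4222 to 4347 and 3092 to 3153 TPM. Untreated JARID2 NPC, where 7 members were already lower, also had a lower neuron sum than the untagged line (4755 to 5133 TPM). In MTF2 NPC the progenitor sum was 4679 to 5009 TPM without and 4685 to 5007 TPM with auxin, and the neuron sum 4520 to 4684 and 3247 to 3348 TPM, with 7 of 10 neuron markers lower. The pluripotency sum was higher with auxin in both lines, at 49.9 to 65.2 TPM and then 164 to 183 TPM in JARID2 NPC (5 of 6 called higher), and at 27.0 to 33.1 TPM and then 54.0 to 65.3 TPM in MTF2 NPC (2 of 6). The mural and mesenchymal sum was 139 to 149 TPM and then 202 to 216 TPM in MTF2 NPC (3 of 6 called higher), and 159.5 to 210.4 TPM and then 155 to 169 TPM in JARID2 NPC (2 of 6 called lower). Of the 16469 genes tested, 1528 were called higher and 2588 (15.7%) lower with auxin in JARID2 NPC. In MTF2 NPC these were 828 (5.03%) higher and 512 (3.11%) lower. The progenitor sums of MTF2 NPC overlapped, but a sum can hide changes of single markers. This list also summed to 666.0 to 688.6 TPM in untreated MTF2 ESC. From untagged ESC to NPC its member Sox2 fell (-0.33), while the others tested rose. The part of these lists in the Notch changes of JARID2 and MTF2 NPC was not tested.

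Notch3, Hey1, Dll4 and Jag1 are also made by vessel and mural cells, so their markers were summed too. In SUZ12 NPC the 7 mural and mesenchymal markers summed to 70.2 to 89.9 TPM without and 206 to 224 TPM with auxin (6 of 6 tested called higher), and the 7 endothelial markers to 12.1 to 14.2 TPM and 50.2 to 51.6 TPM (4 of 5 called higher). Of all 16469 genes tested, 3931 were called higher in this comparison. The 7 presomitic mesoderm markers, of a tissue that uses Lfng and Dll3, summed to 5.52 to 9.86 TPM and 129.9 to 130.5 TPM (2 of 3 called higher), of which Meox1 gave most, and Mesp1 was at 0 with auxin. Neural crest markers summed to 8.47 to 10.1 TPM and endoderm markers to 94.4 to 96.1 TPM with auxin, against 1.40 to 1.43 and 160.3 to 167 TPM without. These sums other than endoderm were higher with auxin, and each of the 10 Notch genes was lower. In untagged NPC without auxin, Foxa2 gave most of the endoderm sum: from ESC it rose (7.92), Sox17 (-0.97) and Gata4 (-1.30) fell, and Ttr and Afp were at 0. The endothelial list summed to 109.7 to 118.5 TPM in untreated SUZ12 ESC, so it did not single out vessel cells. From untagged ESC to NPC, Pecam1 (-5.62), Tek (-3.56) and Tie1 (-2.72) fell, and Cdh5 (3.06) and Kdr (0.51) rose. Likewise, the neural crest list summed to 38.25 to 41.58 TPM in untreated SUZ12 ESC, so it did not single out crest cells. From untagged ESC to NPC, Foxd3 (-4.40) and Tfap2a (-0.78) fell, and Sox10 (-0.46) and Pax3 (0.04) did not pass the test.

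**Figure D5:**
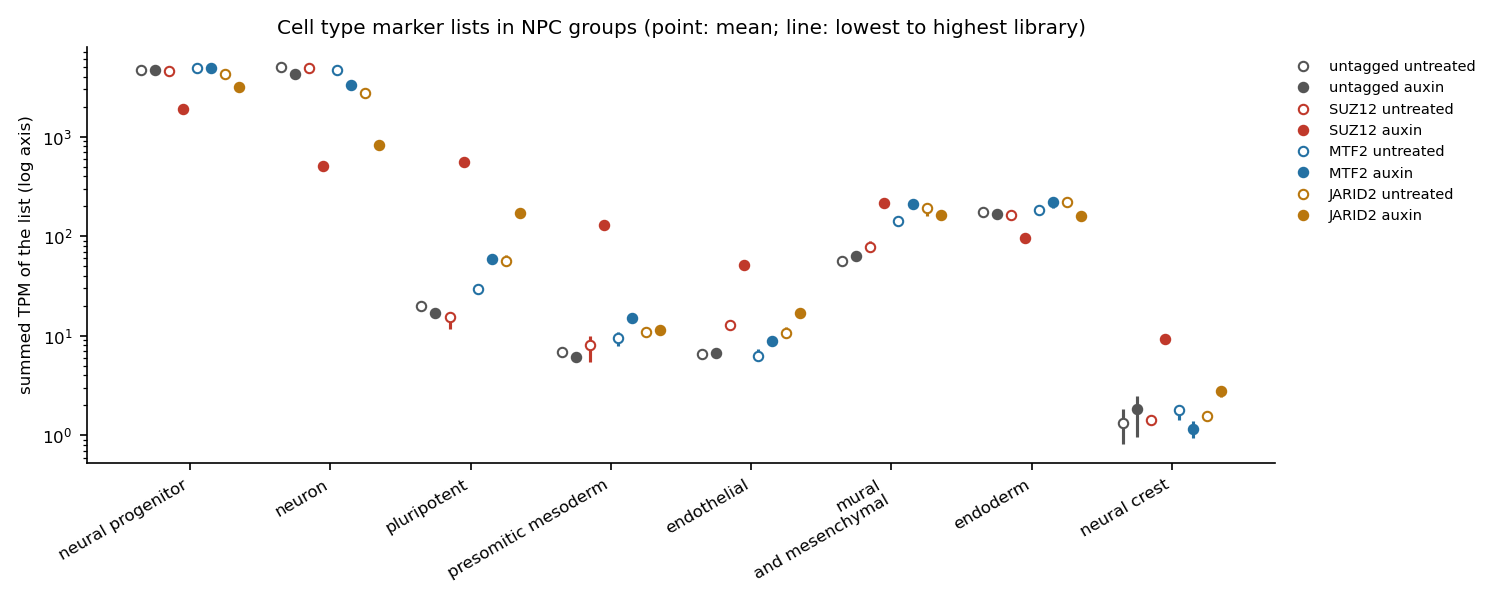
Summed TPM of marker lists by NPC group, on a log axis, with points for the group mean and lines from the lowest to the highest library. In the SUZ12 libraries with auxin the neuron sum lies at 480.6 to 534.8 TPM and the pluripotency sum at 546.3 to 558.5 TPM.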

How the data were processed

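Polyadenylated RNA of 47 mouse libraries was sequenced with strand kept, per the labels' protocols, and the values are the TPM the authors deposited, 1 per gene symbol and library. The submitters' processing notes name STAR 2.6.1d and mm10. How reads were counted, and on which gene models, is not given in the sources used here. Whole reads were recovered from the TPM steps for 100% of the 27296 genes above 0 (tolerance 0.001 of a whole number), giving the depth. MTF2 and JARID2 NPC have day 0 in their titles but NPC and 5 days in the other labels, which were used. SUZ12 NPC auxin replicates 1 and 2 in the titles are 2 and 3 in the library names. All libraries carry 1 run label, so no batch could be split.

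The test was limma's (version 3.58.1, R 4.3.3; linear fit with a robust, trended prior variance) on log2(TPM + 0.5), over genes that reached 1 TPM in 2 libraries or more, with the 8 groups of a stage in 1 fit and all 16 for differentiation; p-values are two-sided and adjusted by Benjamini-Hochberg over all genes tested. In simulated data for SUZ12 NPC (16055 genes) the fit recovered 43.1% of 1.5-fold, 88.1% of 2-fold and 95.6% of 4-fold changes, and 3.8% of its 158 calls were false. The simulation changed 65, 67 and 68 genes at these folds, at a mean of 5 TPM or more and in random directions. It gave every gene the same variability between libraries beyond counting error. The real comparison called 9368 genes, so these rates do not describe its calls. The members and lists were chosen with earlier results of these data known. Named were all 10 members, up to 4 called genes with the smallest p of each other list with some uncalled core genes added after their values were seen, and the 3 genes most alike to each member among those at a mean of 5 TPM or more over NPC; some genes these rules name are not reported here. Alternatives were other pseudocounts (0.1 and 1), no filter, median-of-ratios scaling, the compared groups alone, a replicate block by title numbers and leaving out each library; voom on recovered reads and a block by library-name numbers were added after seeing the data. Coordinates are from GENCODE on GRCm38, which is mm10, and promoters from RefSeq.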

Additional observations from a re-analysis of the deposited data

Results flagged for a closer look

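Effects of auxin in NPC that differed between lines by a test of the difference itself (a limma contrast, counted at an adjusted p under 0.05) are listed as counts of the 10 Notch genes. Against the untagged line, the difference was called for 10 in SUZ12, 8 in JARID2 (all but Hes1 and Notch3) and 1 in MTF2 (Hes5). Of all genes tested, 24.7%, 5.94% and 0.328% were called lower in these comparisons, in that order. Between tagged lines the difference was called for 10 of SUZ12 against MTF2, 9 of SUZ12 against JARID2 (all but Notch3) and 6 of MTF2 against JARID2 (Hey1, Dll1, Dll3, Jag1, Lfng and Hes1). Here 27.2% of all genes were called lower for SUZ12 against MTF2 and 17.6% for SUZ12 against JARID2. For MTF2 against JARID2, 7.82% were called higher. The comparisons with the untagged line share its libraries, and the line pairs share those of each line.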

How the results depend on the processing

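No value of a member reversed among called results: of 3446 single values recomputed, 3354 kept their side of the threshold, 48 lost the call, 44 gained it, and 84 uncalled values changed sign. Of 376 counts of members called, 351 stayed within 1.5 times. The SUZ12 ESC count of 3 became 1 with median-of-ratios scaling and 5 with voom, and 1 to 3 on leaving out a library; beyond the untagged line it went from 0 to 2 with voom. Beyond the untagged line in MTF2 NPC, the count of 1 became 2 with a pseudocount of 1, with rescaling and with the compared groups alone, 4 with voom, and 1 to 2 on leaving out a library. Without auxin, MTF2 ESC went from 1 to 2 with voom, JARID2 ESC from 1 to 0 with the compared groups alone and 0 to 2 on leaving out a library, and MTF2 NPC from 1 to 2 with rescaling, the replicate block and the compared groups alone, 4 with voom, and 0 to 1 on leaving out a library. Apart from what the alternatives do by construction, the cause was not tested. By title numbers, same-numbered libraries correlated at -0.033 to 0.085 in their deviations, and 15 of 24 untreated libraries were closest to their own number. By library-name numbers, which differ for SUZ12 NPC with auxin, these were -0.016 to 0.085 and 16 of 24. Under either numbering an untreated SUZ12 NPC library had no same-numbered auxin library, which left 23 pairs. None was over 0.1, a cut-off with no test behind it, and numbers were not taken as pairs in the main fit. Most untreated libraries, and every MTF2 and JARID2 one in NPC, were still closest to their own number. Weak sharing between same-numbered libraries may therefore remain. With the replicate block JARID2 NPC beyond the untagged line had 9 members called against 8, MTF2 against JARID2 8 against 6 and untreated JARID2 NPC 8 against 7. A replicate block by library-name number, chosen after seeing the data, gave the same counts for these and 2 for untreated MTF2 NPC, and 2 against 1 for MTF2 NPC beyond the untagged line. Depth limits Hes5 and Dll4 in ESC, which rest on 0 to 5 reads a library.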
